A study of Mus musculus with 2 samples.

Results

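The 36 genes described here encode the enzymes and transporters of glycolysis and lactate handling, together with oxygen sensors and genes that low oxygen is known to induce. They were taken as a fixed list of gene symbols, 36 of the 32285 genes in the table, and were followed in scRNA-seq of live CD45+ cells from injured neonatal mouse hearts, both summed and one by one. One library came from wild-type (WT) hearts and one from *Lyve1* knockout (KO) hearts, each pooled from 5 hearts. In both genotypes the MI (myocardial infarction) was made at postnatal day 2, and hearts were collected after 7 days, when the mice were 9 days old. *Lyve1* encodes a hyaluronan receptor of lymphatic endothelium and of tissue-resident macrophages, and the study describes its knockout as global, not limited to macrophages. With 1 library per genotype there are no replicates: no test was possible, all intervals are 95% intervals for counting error only, and genotype cannot be told apart from the hearts, the sort or the library.

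The WT library held 67968938 unique molecular identifiers (UMIs, each standing for 1 captured transcript) in 5713 barcodes, and the KO library held 61555917 in 5285. After filtering, 4187 WT and 3391 KO cells remained, with a median of 11165 and 12867 UMIs per cell. Barcodes above the mitochondrial limit made up 10.5% of WT and 16.5% of KO barcodes, and 9 barcode sequences occurred in both libraries. In the kept cells *Lyve1* had 15907 UMIs in WT and 749 in KO, as the labels state. Its level in CCR2- macrophage-like cells was 508 CPM (counts per 1000000 UMIs of those cells) in WT, compared with 21.6 in KO. Cells were clustered with the 36 genes left out and named from marker genes. The 6 classes compared were CCR2- macrophage-like cells (1026 WT and 421 KO), CCR2+ macrophage-like cells (230 and 231), monocyte-like cells (421 and 452), neutrophil-like cells (352 and 334), B cell-like cells (427 and 496) and T cell-like cells (398 and 479). Named cells outside these classes were natural killer and innate lymphoid (NK and ILC)-like (87 WT and 101 KO) and dendritic cell-like (62 and 35). Mast cell or basophil-like cells (29 and 15) and endothelial-like cells (24 and 35) were also outside. A further 1131 WT and 792 KO cells stayed without a name.

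In glycolysis, glucose enters the cell through GLUT transporters, is phosphorylated by hexokinases and is split and oxidised to pyruvate, which lactate dehydrogenase can turn into lactate for export. When oxygen is low, the prolyl hydroxylases that mark HIF-1α for destruction slow down, and HIF-1α with its partner ARNT binds short DNA motifs with the core ACGTG or GCGTG near many of these genes. Macrophages and neutrophils that enter injured tissue are known for high glycolytic activity, whereas tissue-resident macrophages rely more on mitochondrial respiration.

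The HIF core motifs are common in the promoters of these genes. RefSeq promoter windows on GRCm38.p6, from 250 bases before to 50 bases after a transcript's start, were held for 34 of the 36 genes, with 47 windows in all. ACGTG or GCGTG, on either strand, occurred in 83.0% of the 47 windows and in 43.8% of all 32851 windows. By gene, 31 of 34 had a match in at least 1 window, compared with 46.7% of all 27025 genes. Both motifs contain CG, and the windows compared were not matched for base composition. Both motifs are short, and ACGTG overlaps the palindrome CACGTG, an E-box that other factors also bind, which stood in 12.8% of the 47 windows and 7.15% of all windows. A match is a run of letters, not a measured binding site. The stretches below, all outside annotated exons, belong to the 3 genes that were lower in KO CCR2- macrophage-like cells (*Slc2a1*, *Ankrd37*, *Pdk1*) and to 3 of those that were higher in KO CCR2+ macrophage-like cells (*Egln3*, *Bnip3*, *P4ha1*). Each is 120 bases long and reads 5′ to 3′ on the strand of its gene, with the motif letters in capitals.
*Slc2a1*, chr4:119108591-119108710, plus strand: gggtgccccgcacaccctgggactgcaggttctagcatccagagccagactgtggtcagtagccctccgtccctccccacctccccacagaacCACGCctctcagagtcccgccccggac
*Ankrd37*, chr8:45999972-46000091, minus strand: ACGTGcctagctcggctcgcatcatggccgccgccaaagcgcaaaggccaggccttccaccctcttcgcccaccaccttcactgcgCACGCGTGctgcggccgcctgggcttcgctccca
*Pdk1*, chr2:71873104-71873223, plus strand: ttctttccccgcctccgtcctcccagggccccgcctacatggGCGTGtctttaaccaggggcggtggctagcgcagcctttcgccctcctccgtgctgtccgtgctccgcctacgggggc
*Egln3*, chr12:54203984-54204103, minus strand: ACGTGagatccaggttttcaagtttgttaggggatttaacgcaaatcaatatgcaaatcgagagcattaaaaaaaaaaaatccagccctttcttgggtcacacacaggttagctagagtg
*Bnip3*, chr7:138909520-138909639, minus strand: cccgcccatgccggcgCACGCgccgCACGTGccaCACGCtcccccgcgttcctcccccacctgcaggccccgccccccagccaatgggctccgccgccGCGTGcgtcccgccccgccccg
*P4ha1*, chr10:59323170-59323289, plus strand: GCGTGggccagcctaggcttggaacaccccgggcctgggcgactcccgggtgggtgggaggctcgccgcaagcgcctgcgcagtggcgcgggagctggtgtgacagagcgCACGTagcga
The *Bnip3* stretch holds 5 matches, 2 of which overlap in 1 CACGTG, the *Ankrd37* stretch 3, the *P4ha1* stretch 2 and the others 1 each. All 6 are upstream of a RefSeq transcript start, and the *Ankrd37* stretch also lies in an intron of a longer GENCODE transcript (gene span 45996902 to 46005707 on chromosome 8). Among the genes shown, those lower in KO in one macrophage class and those higher in the other both carry the letters. Of the other genes higher in KO CCR2+ macrophage-like cells, *Eno3* and *Slc16a1* also had matches outside exons. *Aldoc* had none in its stretch outside exons, and *Slc2a3* had no window.

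The 36 genes together made up the largest share of UMIs in CCR2+ macrophage-like cells and neutrophil-like cells. In WT, their summed level (CPM) was 9287 for CCR2+ macrophage-like cells, 9237 for neutrophil-like cells, 7684 for T cell-like cells, 7183 for monocyte-like cells, 5970 for CCR2- macrophage-like cells and 4916 for B cell-like cells. In KO, the values were 10054, 8521, 6092, 6722, 5182 and 5151 CPM in the same order of classes. *Gapdh*, the dehydrogenase often used as a reference gene, held 25.7% to 37.3% of these UMIs, and the 5 members with most UMIs held 61.9% to 68.7%. Reads of *Gapdh*, *Eno1* and *Aldoa* can be shared with near-identical gene copies, so their levels are less certain than those of the others. The T cell-like sum mixed unlike clusters. That led by *Arpp21* and *Dntt* held 27960 of 44402 WT and 14503 of 44782 KO UMIs, at 9393 and 8850 CPM. The *Ctla4* cluster was at 9665 and 9982 CPM. The *Dapl1* cluster was at 4456 and 3952 CPM, the *Sidt1* cluster at 5043 and 4350 and the *Cd163l1* cluster at 5651 and 5951. CCR2+ stood above CCR2- macrophage-like cells by 2-fold or more in both libraries for 9 of 34 members, compared with 5.48% of all genes, and no member was 2-fold lower (10.7% of all genes). Those 9 were *Slc2a1*, *Pfkp*, *Aldoc*, *Pgk1*, *Pkm*, *Slc16a3*, *Hif1a*, *Egln3* and *Ndrg1*. *Hif1a*, which encodes the oxygen-regulated subunit of the factor, was at 59.9 and 79.4 CPM in CCR2- and at 233 and 280 CPM in CCR2+ macrophage-like cells (WT and KO).

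**Figure D1:**
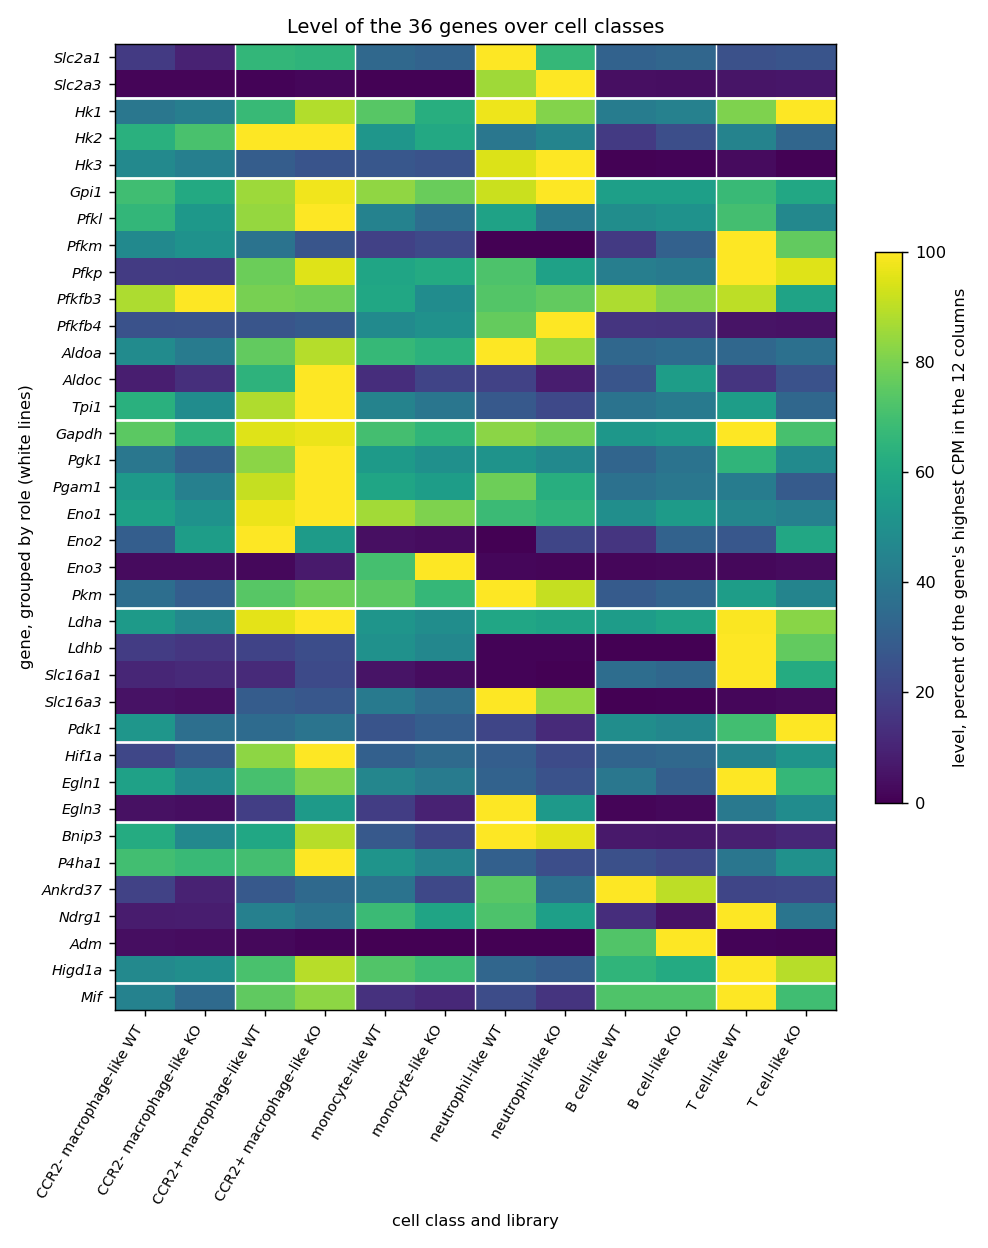
Level of each of the 36 genes (rows, grouped by role) in the 6 cell classes of the WT and KO libraries (columns), as percent of the gene's highest CPM among the 12 columns. *Slc2a3* and *Slc16a3* are brightest in neutrophil-like cells, *Eno3* in monocyte-like cells and *Adm* in B cell-like cells in both libraries, and most steps of the pathway are bright in CCR2+ macrophage-like cells.

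Against monocyte-like cells, CCR2+ macrophage-like cells were 2-fold or more higher in both libraries for 5 of 33 members (8.99% of all genes) and lower for *Eno3* alone (6.40%). Neutrophil-like cells were higher than monocyte-like cells for 6 of 31 members (8.04%), *Slc2a1*, *Slc2a3*, *Hk3*, *Slc16a3*, *Egln3* and *Bnip3*, and lower for 3 (41.7%), *Eno3*, *Ldhb* and *Higd1a*. T cell-like cells were higher than B cell-like cells for 7 of 34 members (11.0%) and lower for 3 (9.28%), *Pfkfb4*, *Ankrd37* and *Adm*.

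For 26 of the 36 genes the class with the highest level was the same in both libraries. It was CCR2+ macrophage-like cells for 9 genes, neutrophil-like cells for 8, T cell-like cells for 6, B cell-like cells for 2 and monocyte-like cells for 1. For no gene did both libraries place CCR2- macrophage-like cells highest. The highest class was not counted over all genes, so these counts have no background beside them and are not shown to be particular to the list. Members at least 4-fold above their median class in both libraries numbered 4 of 36, against 20.4% of all genes, so strong restriction to 1 class was not a common trait of the list.

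Paralogs that carry out the same step divided between the classes. Of the GLUT transporters, *Slc2a3* (GLUT3, with a high affinity for glucose) was at 539 and 629 CPM (WT and KO) in neutrophil-like cells, 29.97-fold and 38.6-fold above the median class, and held 70.9% and 81.1% of the UMIs of *Slc2a1* and *Slc2a3* together. In CCR2+ macrophage-like cells it held 4.5% and 6.4%, so *Slc2a1* (GLUT1) gave nearly all UMIs of this pair there. Shares of this kind count UMIs read at the 5′ end of transcripts and are not scaled by length. Of the lactate transporters, *Slc16a3* (MCT4, known for lactate export) was highest in neutrophil-like cells, at 825 and 691 CPM, and held at least 80.6% of *Slc16a1* and *Slc16a3* UMIs in all 4 myeloid classes, whereas *Slc16a1* (MCT1) held 96.1% and 87.6% in B cell-like and 81.0% and 65.8% in T cell-like cells. The T cell-like share differed between clusters. *Slc16a1* held 98.6% and 99.2% in the cluster led by *Arpp21* and *Dntt*, with 291 of its 392 WT UMIs, whereas the cluster led by *Ctla4* had 10 and 16 UMIs of *Slc16a1* and 59 and 116 of *Slc16a3*. Of the hexokinases, *Hk3* was at 114 and 120.5 CPM in neutrophil-like cells and at 0.5 and 1.0 CPM in B cell-like cells, where *Hk1* held 61.1% and 53.1% of hexokinase UMIs. *Hk2*, the inducible form, held 51.6% and 49.4% in CCR2+ macrophage-like cells.

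The muscle enolase *Eno3* was at 157 and 222 CPM in monocyte-like cells, and its next highest class had 6.6 (WT) and 16.2 CPM (KO). Most of it lay in the cluster led by *Ace* and by *Eno3* itself, at 464 and 547 CPM, compared with 20.1 and 30.1 CPM in the cluster led by *Vcan* and *Ly6c2*. In the *Ace* cluster *Eno3* held 37.1% and 41.5% of enolase UMIs. *Eno3* was among the genes left out when the clusters were made. *Adm*, which encodes the peptide adrenomedullin, was at 37.5 and 51.5 CPM in B cell-like cells and at or below 1.9 CPM in the other 5 classes. *Adm* lies 221 kb from *Lyve1* on chromosome 7, so its values are given with that neighbourhood in view.

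Of the other steps, *Pfkl* held 65.5% and 60.4% of phosphofructokinase UMIs in CCR2- macrophage-like cells, and *Pfkp* held 55.1% or more in each of the other 5 classes. *Pfkfb4*, which with *Pfkfb3* sets the level of an activator of phosphofructokinase, held 73.5% and 77.8% of the pair in neutrophil-like cells and 13.1% and 18.3% in T cell-like cells. *Aldoa* held nearly all aldolase UMIs in all 6 classes, and *Eno1* nearly all enolase UMIs outside the monocyte-like cells. There *Eno1* held 85.0% and 79.0%, but 97.9% and 96.7% in the monocyte-like cluster led by *Vcan* and *Ly6c2*. *Ldhb*, the isoform usual in heart, held 12.6% and 12.4% of lactate dehydrogenase UMIs in monocyte-like and 12.97% and 12.05% in T cell-like cells, and at most 0.3% in neutrophil-like and B cell-like cells. *Egln3* held 84.3% and 78.1% of *Egln1* and *Egln3* UMIs in neutrophil-like cells and 11.3% and 12% in CCR2- macrophage-like cells.

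The next comparison asks how the genes differed between the genotypes within each class. The log2 ratio of the summed level, KO over WT, was −0.20 (−0.22 to −0.19) in CCR2- macrophage-like cells, 0.11 (0.10 to 0.13) in CCR2+ macrophage-like cells, −0.10 (−0.11 to −0.08) in monocyte-like cells, −0.12 (−0.14 to −0.09) in neutrophil-like cells, 0.07 (0.05 to 0.09) in B cell-like cells and −0.33 (−0.35 to −0.32) in T cell-like cells. All 6 were small, and counting error is not the error that matters between 2 pools of hearts. The spread between hearts could be seen only in part, by setting male cells against female cells, which come from different hearts of each pool. Cells were called female from *Xist* and male from Y-linked genes, and cells with both or neither were left out. The mix differed between the pools, with 688 male and 271 female CCR2- macrophage-like cells in WT and 208 and 182 in KO. For T cell-like cells the numbers were 153 and 176, and 268 and 126. Within WT alone the sum was 7746 CPM in male and 11733 in female CCR2+ macrophage-like cells. For the CCR2- class the WT values were 5177 (male) and 7608 CPM (female). That gap was wider than the one between WT and KO in all cells of the class (5970 and 5182 CPM). WT T cell-like cells were at 6240 and 8827 CPM, monocyte-like at 6734 and 7775 and neutrophil-like at 8911 and 9118. In WT B cell-like cells the sum was 5211 and 4098 CPM. KO was lower than WT in both sexes for the CCR2- class (−0.14 in male and −0.42 in female cells). T cell-like sums were also lower in KO in both sexes (−0.04 and −0.44). In CCR2+ macrophage-like cells the sexes went opposite ways (0.40 and −0.24), as they did in monocyte-like (0.03 and −0.22), neutrophil-like (−0.10 and 0.13) and B cell-like cells (−0.01 and 0.36).

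**Figure D2:**
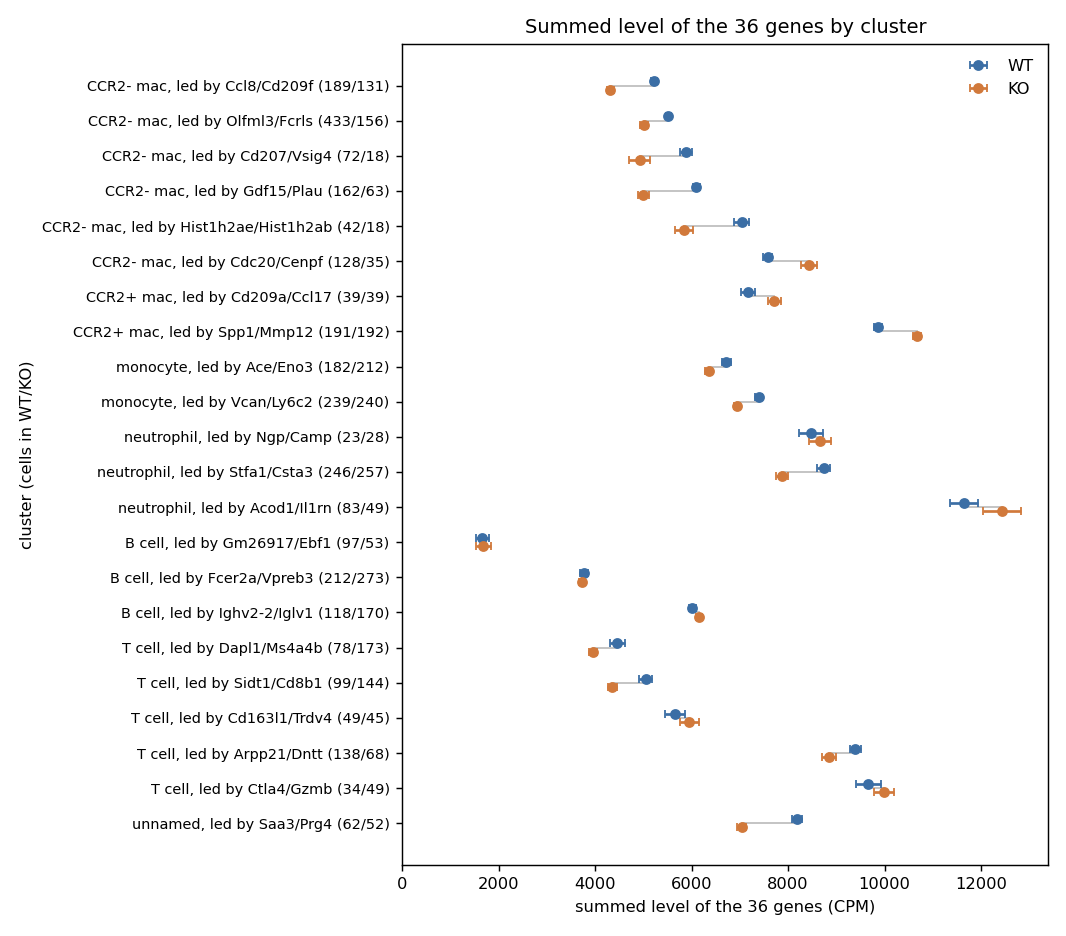
Summed level of the 36 genes (CPM, with 95% Poisson intervals for counting error) in WT and KO for each cluster of the 6 classes and 1 unnamed macrophage cluster. Among the CCR2- macrophage-like clusters KO lies below WT in 5 of 6, and the cycling *Cdc20* cluster goes the other way (7573 CPM in WT and 8429 CPM in KO).

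Within CCR2- macrophage-like cells the clusters led by *Olfml3*, *Ccl8*, *Gdf15*, *Cd207* and *Hist1h2ae* were each lower in KO, by 0.14 to 0.29 on the log2 scale, and the cluster led by the mitotic gene *Cdc20* was higher by 0.15. Cells called in S or G2/M made up 29.2% of WT and 21.9% of KO cells of this class, and these phases had higher sums. The ratio was −0.22 in cells called G1, −0.10 in cells called S and 0.04 in cells called G2/M. An unnamed cluster with *Saa3* and *Prg4* in the lead was at 8185 and 7041 CPM. By role, the glucose transporters together were at 46.8 CPM in WT and 30.6 in KO CCR2- macrophage-like cells (log2 ratio −0.62), while the hexokinases were at 121 and 123 CPM (0.03), and the upper, lower and lactate steps were each lower by 0.21 to 0.22. In CCR2+ macrophage-like cells the hypoxia targets (333 and 444 CPM, ratio 0.41) and the oxygen sensing genes (271 and 344 CPM, 0.35) had the largest ratios of the roles, and glucose transporters had the least (153 and 154 CPM, 0.01). In neutrophil-like cells *Mif* apart, the oxygen sensing genes had the lowest ratio (157 and 107 CPM, −0.55).

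In T cell-like cells the cluster led by *Arpp21* and *Dntt*, the latter the terminal transferase of developing lymphocytes, had 138 WT and 68 KO cells and a high sum (9393 and 8850 CPM). With each cluster given its WT share in both libraries, the T cell-like ratio was −0.08, the CCR2- macrophage-like ratio −0.13 and the neutrophil-like ratio −0.06. By cluster, the neutrophil-like sum was lower in KO in the *Stfa1* cluster (log2 ratio −0.15) and higher in the *Acod1* cluster (0.09). In the *Ngp* cluster it was at 0.03, with an interval that included 0. The B cell-like clusters were at −0.02 (*Fcer2a*), 0.03 (*Ighv2-2*) and 0.02 (*Gm26917*). Proliferation markers summed to 3034 CPM in WT and 1569 CPM in KO T cell-like cells.

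Single genes were then compared by a fixed size, a log2 ratio of at least 0.5 in either direction, among genes with at least 100 UMIs in the 2 libraries together. Counts of members stand beside the share of all genes past the same size in that class. *Eno2*, the neuronal enolase, had too few UMIs in all 6 classes. *Aldoc* and *Adm* had too few in 5 each, *Pfkm* in 4, *Eno3* in 3 and *Hk3*, *Ldhb*, *Slc16a1* and *Egln3* in 2 each, while *Slc2a3*, *Slc16a3*, *Pdk1*, *Egln1*, *Bnip3* and *Ndrg1* had too few in 1 class each. The other 21 genes were measured in all 6.

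**Figure D3:**
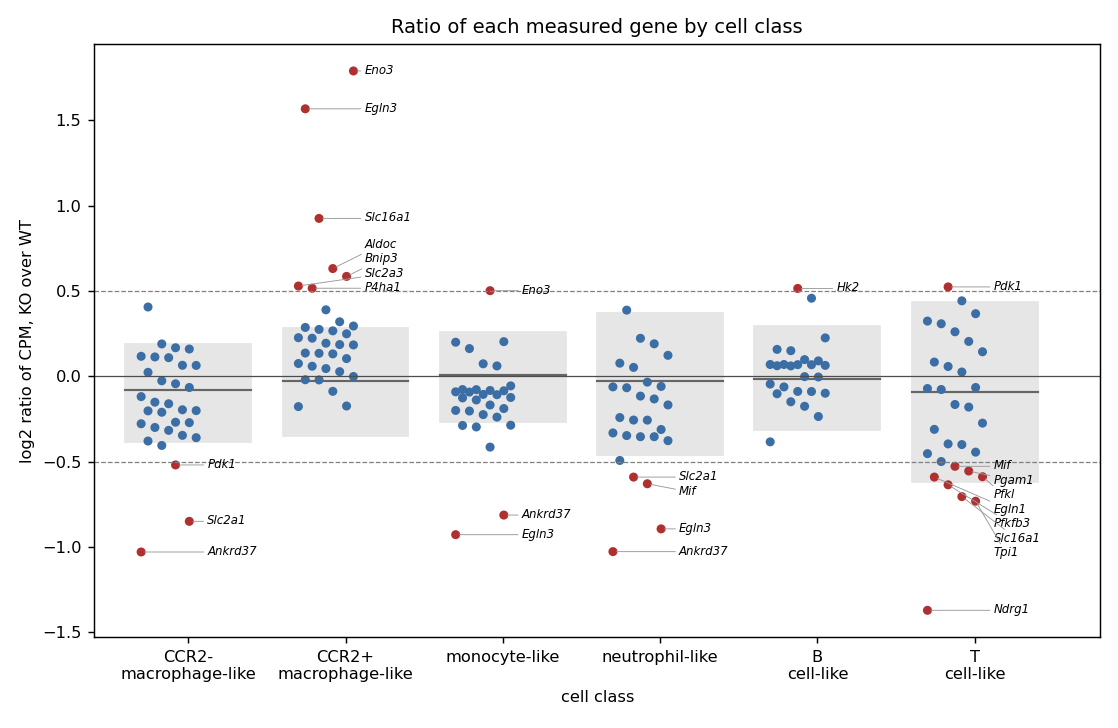
Log2 ratio of CPM, KO over WT, for each measured member in the 6 classes (points). Red points are at or past 0.5 in size (dashed lines), the grey boxes span the 10th to 90th percentile of all genes measured in that class and the grey bar is their median. Members lie mostly above the bar in CCR2+ macrophage-like cells and mostly below it in CCR2- macrophage-like, monocyte-like and neutrophil-like cells.

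In CCR2- macrophage-like cells, *Slc2a1*, *Ankrd37* and *Pdk1* were lower in KO. They were the 3 of 32 measured members past the limit downwards (5.77% of all genes), and no member was past it upwards (2.17%), against 7.94% of all genes in either direction. The median ratio was −0.18 over the members and −0.08 over all 10768 genes, and 22 of 32 members were below 0, compared with 65.9% of all genes. *Slc2a1* stood at 37.6 CPM in WT (950 UMIs in 354 of 1026 cells), compared with 20.8 in KO (236 UMIs in 115 of 421 cells), a log2 ratio of −0.85. It was lower in KO in each of the 6 clusters. Examples were 29.0 and 13.3 CPM in the *Ccl8* cluster and 33.0 and 21.3 CPM in the *Olfml3* cluster. The least difference was in the *Hist1h2ae* cluster (32.5 and 26.7 CPM). All clusters came from the same 2 libraries and are not replicates. The *Hist1h2ae* cluster had 42 WT and 18 KO cells, and the *Cd207* cluster 72 and 18. *Slc2a1* was also lower in the unnamed *Saa3* cluster, at 34.6 and 19.2 CPM. With each cell thinned to 4900 UMIs, 12.8% of WT cells (10.8% to 15.0%, exact Clopper-Pearson interval) and 8.2% of KO cells (5.8% to 11.3%) had a UMI of *Slc2a1* (34.5% and 27.3% without thinning), and the 2 intervals overlapped. Cells with fewer than 4900 UMIs were left out of all thinned shares, here 23 of 1026 WT and 8 of 421 KO cells. The shares without thinning are of all cells. *Slc2a1* is also a gene of red cells, and erythroid markers were higher in WT, 42.5 compared with 7.2 CPM over 9 genes. In cells without a single erythroid UMI the *Slc2a1* ratio was −0.96. The part of red cell RNA in the *Slc2a1* ratio was not tested.

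*Ankrd37*, an ankyrin repeat gene known as a HIF-1 target, had 465 UMIs in WT (18.4 CPM) and 102 in KO (9.0 CPM), a log2 ratio of −1.03. The single cell with most UMIs held 36 of the WT UMIs. The ratio without the top cell of each library was −1.01. After thinning, 6.6% of WT cells (5.1% to 8.3%) and 4.4% of KO cells (2.6% to 6.8%) had a UMI of it, again with overlapping intervals. Both *Slc2a1* and *Ankrd37* stayed past the limit in male cells (−0.75 and −0.99) and in female cells (−1.08 and −1.15). *Pdk1*, whose kinase keeps pyruvate out of the mitochondrial cycle, was at 28.2 and 19.7 CPM, a ratio of −0.52 that lay just past the limit and reached −0.44 in male and −0.66 in female cells. The mitophagy receptor gene *Bnip3* missed the limit (58.9 and 44.5 CPM, ratio −0.41) but was lower in KO in each of the 6 clusters. *Hif1a* itself went the other way, 59.9 and 79.4 CPM with a ratio of 0.41, and was higher in KO in each of the 6 clusters.

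**Figure D4:**
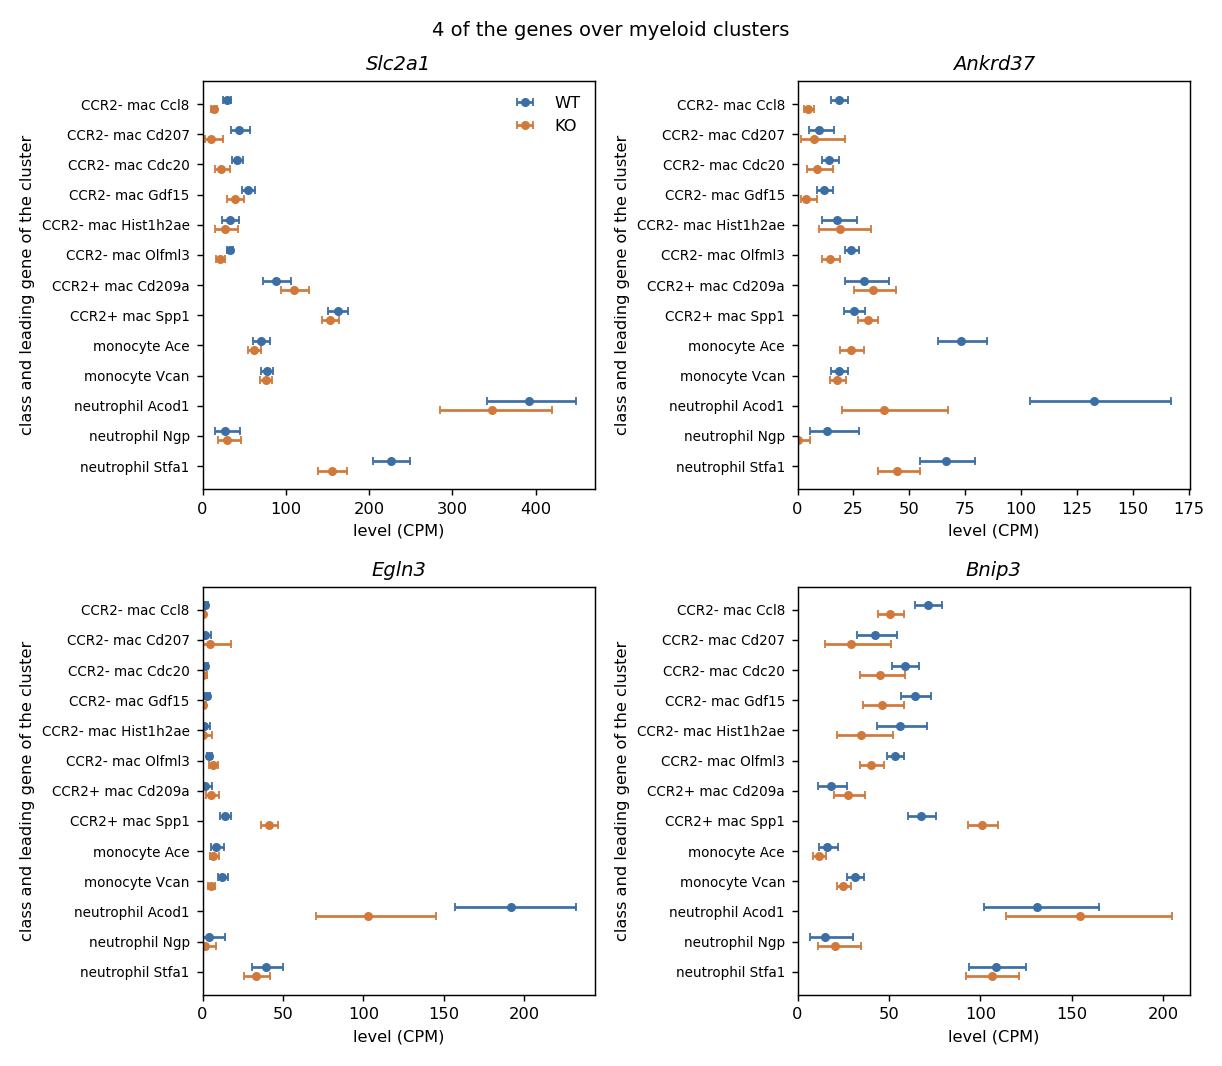
Level (CPM, with 95% Poisson intervals for counting error) of *Slc2a1*, *Ankrd37*, *Egln3* and *Bnip3* in WT and KO in the clusters of CCR2- and CCR2+ macrophage-like, monocyte-like and neutrophil-like cells. *Slc2a1* and *Bnip3* are lower in KO in each CCR2- cluster, *Egln3* and *Bnip3* are higher in KO in the CCR2+ cluster led by *Spp1*, and *Ankrd37* is far lower in KO in the monocyte cluster led by *Ace* and the neutrophil cluster led by *Acod1*.

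In CCR2+ macrophage-like cells, 7 of 33 measured members were past the limit upwards (3.40% of all genes) and none downwards (4.58%). The sexes differed in this: 10 members were past it upwards and 0 downwards in male cells, and 3 upwards and 3 downwards in female cells. The share of all genes past the limit was not computed within each sex, so these counts have no background beside them. The 7 members in all cells were the hypoxia genes *Egln3*, *Bnip3* and *P4ha1*, the glycolytic *Aldoc* and *Eno3*, and the transporters *Slc2a3* and *Slc16a1*. The median ratio was 0.19 over the members and −0.03 over all genes. Of the 33 members 27 were above 0, while 55.3% of all genes were below 0. *Egln3*, the prolyl hydroxylase gene that HIF-1 itself induces, had 68 UMIs in 36 of 230 WT cells (11.4 CPM) and 252 UMIs in 55 of 231 KO cells (33.7 CPM), a log2 ratio of 1.57. Its UMIs were concentrated in the *Spp1* cluster (14.0 and 41.3 CPM), and 1 KO cell held 49 of them. The ratio was 2.69 in male cells and 0.53 in female cells, the latter with an interval that included 0 (−0.04 to 1.11).

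*Bnip3* was at 57.1 and 85.6 CPM in these cells, a ratio of 0.59, and *P4ha1*, a collagen prolyl hydroxylase subunit, at 133 and 190 CPM, a ratio of 0.52. *P4ha1* was higher in both sexes (0.61 in male and 0.33 in female cells), whereas *Bnip3* was higher in male cells (1.22) and at −0.24 in female cells. In 1 KO cell there were 118 *P4ha1* UMIs of 1422, and without the top cell of each library the ratio was 0.44, below the limit. The shares of cells with a UMI after thinning had overlapping intervals for both genes, 22.1% and 27.8% for *Bnip3* and 46.9% and 48.4% for *P4ha1*.

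The remaining 4 genes had few UMIs in this class. *Eno3* had 28 UMIs in 24 WT cells and 121 UMIs in 25 KO cells, and 1 KO cell alone held 27. The ratio was 1.79, but the number of positive cells was nearly equal. *Slc16a1* had 48 and 114 UMIs (8.0 and 15.2 CPM, ratio 0.92) and was higher in KO in male (0.61) and female cells (1.90). *Aldoc* (8.0 and 12.4 CPM, ratio 0.63) and *Slc2a3* (6.9 and 9.9 CPM, ratio 0.53) were higher in male cells (1.35 and 1.16) and not in female cells (−0.19 and −1.09). *Slc2a3* was at −0.07 in cells without an erythroid UMI. Cardiomyocyte markers summed to 61.9 and 12.2 CPM here (WT and KO), with 0 and 2 of the 10 genes at 0, and erythroid markers to 18.4 and 6.4 CPM. The part of the cardiomyocyte RNA in these ratios was not tested.

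**Figure D5:**
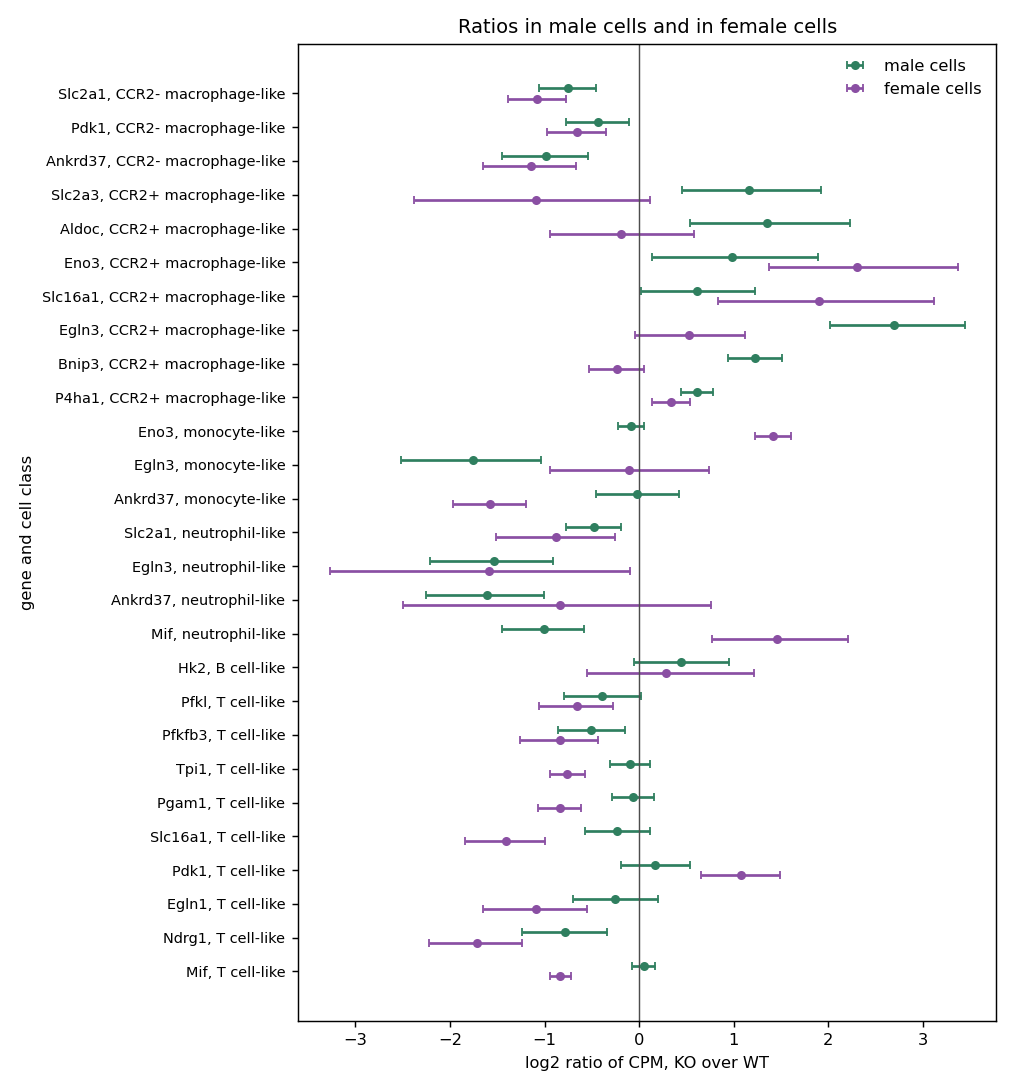
Log2 ratio of CPM, KO over WT, computed in male cells alone and in female cells alone, for each gene and class past 0.5 in size in all cells, with 95% exact intervals for counting error. *Slc2a1*, *Ankrd37* and *Pdk1* in CCR2- macrophage-like cells and *Slc2a1* and *Egln3* in neutrophil-like cells lie left of 0 in both sexes, whereas *Bnip3*, *Aldoc* and *Slc2a3* in CCR2+ macrophage-like cells and *Mif* in neutrophil-like cells fall on opposite sides.

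In monocyte-like cells, 1 of 30 measured members was past the limit upwards (2.22% of all genes) and 2 downwards (3.14%; 5.36% in either direction). *Eno3* was the one that was higher, at 157 and 222 CPM, a ratio of 0.50. Within its own *Ace* cluster the ratio was 0.24, and the sexes disagreed (−0.09 in male and 1.41 in female cells). *Ankrd37* was at 35.3 and 20.1 CPM, a ratio of −0.81, and the difference sat in the *Ace* cluster (73.1 and 23.9 CPM) and in female cells (−1.58, compared with −0.02 in male cells). A single WT cell held 78 of its 282 UMIs, and without the top cells the ratio was −0.46. *Egln3* was at 11.2 and 5.9 CPM, a ratio of −0.93, with a UMI in 35 of 421 WT and 38 of 452 KO cells. A single WT cell held 23 of its 89 UMIs, and without the top cells the ratio was −0.57. Neutrophil markers were higher in WT monocyte-like cells, at 1259 compared with 691 CPM, and *Egln3* and *Ankrd37* were both higher in neutrophil-like than in monocyte-like cells in each library. The part of neutrophil RNA in these 2 ratios was not tested.

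In neutrophil-like cells, no member was past the limit upwards (5.50% of all genes) and 4 of 27 were past it downwards (8.27%). Cells called in S or G2/M made up 11.6% of WT and 27.2% of KO cells of this class, proliferation markers summed to 89.4 and 226 CPM, and the ratio of the summed level was −0.07 in cells called G1. *Slc2a1* was at 221 and 147 CPM, a ratio of −0.59, and 51.0% of WT and 39.5% of KO cells had a UMI of it after thinning, with intervals that met only at their ends (45.1% to 56.9% and 33.9% to 45.3%). *Ankrd37* was at 69.2 and 33.9 CPM, a ratio of −1.03. *Egln3* was at 61.8 and 33.3 CPM, a ratio of −0.89. All 3 were lower in KO in male cells (−0.48, −1.61 and −1.54) and in female cells (−0.88, −0.84 and −1.59), though the female cells numbered 26 in WT and 34 in KO and the female interval of *Ankrd37* included 0 (−2.50 to 0.76). The cytokine gene *Mif* was at 137 and 88.5 CPM, a ratio of −0.63 that went the other way in female cells (1.46). The cluster led by *Acod1* and *Il1rn* had 83 WT and 49 KO cells and the highest levels of *Egln3* (192 and 103 CPM) and *Ankrd37* (133 and 38.6 CPM). With each cluster given its WT share, *Egln3* was at −0.61 and *Ankrd37* at −0.97, while *Slc2a1* (−0.39) and *Mif* (−0.12) did not reach the limit. Erythroid markers summed to 107 CPM in WT and 15.6 CPM in KO neutrophil-like cells. In cells without an erythroid UMI the ratios of *Slc2a1*, *Ankrd37* and *Egln3* were −0.69, −0.89 and −1.01. The part of red cell RNA in these ratios was not tested.

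In B cell-like cells, 1 of 26 measured members was past the limit upwards (3.99% of all genes) and none downwards (3.57%; 7.57% in either direction). This was *Hk2*, at 12.1 and 17.3 CPM, a ratio of 0.51 that was −0.07 in cells called G1. Cells called in S or G2/M made up 24.8% of WT and 37.9% of KO B cell-like cells. *Adm* was at a ratio of 0.46, and within the cluster led by *Fcer2a* it was at 49.1 and 47.2 CPM, compared with 31.2 and 56.5 CPM in the cluster led by *Ighv2-2*.

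In T cell-like cells, 8 of 31 members were past the limit downwards (14.5% of all genes) and 1 upwards (7.96%). The 8 were *Pfkl*, *Pfkfb3*, *Tpi1*, *Pgam1*, *Slc16a1*, *Egln1*, *Ndrg1* and *Mif*, and the 1 was *Pdk1* (37.4 and 53.7 CPM, ratio 0.52). A large share of all genes was past the limit in this class, and with WT cluster shares in both libraries 3 members were past it, among them *Pfkfb3* (−0.53) and *Ndrg1* (−1.01) of these 9. *Pfkl* was at 51.7 and 34.4 CPM, *Pfkfb3* at 58.3 and 37.5, *Pgam1* at 163 and 111, *Slc16a1* at 67.8 and 41.6 and *Egln1* at 36.9 and 24.5, with ratios from −0.55 to −0.70. The lowest ratio was that of *Ndrg1*, a stress-induced gene, at 54.2 and 20.9 CPM with −1.37. *Ndrg1* was at −1.01 with WT cluster shares, at −0.79 in male cells and at −1.72 in female cells, and in the *Arpp21* cluster it was at 83.3 and 35.4 CPM. *Tpi1*, triosephosphate isomerase, was at 226 and 136 CPM in all T cell-like cells, with −0.73, and its ratio was 0.0018 in cells called G1. *Mif* was at 585 and 406 CPM, with −0.53, and its ratio was 0.05 in male cells.

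Other genes of glucose metabolism and of the HIF pathway were counted in the same way from 6 further lists. Of 23 genes of pyruvate entry and the tricarboxylic acid cycle, 0 of 22 measured were past the limit in CCR2- macrophage-like cells and 1 of 20, *Pdk3*, in CCR2+ macrophage-like cells (downwards). No measured gene of the pentose phosphate pathway (7 genes) was past it in any myeloid class, nor was any of 12 genes of gluconeogenesis and glycogen in any of the 6 classes. Of 20 further glycolytic isoforms and regulators, at most 1 was past it in each class. Among 15 regulators of the HIF pathway, *Myc* was past it downwards in both macrophage classes and upwards in T cell-like cells, and *Hif1an* upwards in monocyte-like cells.

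Among 23 other hypoxia targets, 2 of 16 were past the limit downwards in CCR2- macrophage-like cells (5.77% of all genes), 3 of 13 in monocyte-like cells (3.14%), 4 of 12 in neutrophil-like cells (8.27%) and 2 of 12 in T cell-like cells (14.5%, a share near that of the list), and none upwards in these classes. In CCR2+ macrophage-like cells 2 of 14 were past it upwards (3.40%) and 1 downwards (4.58%). The list's summed level did not follow these counts in macrophages. It was 1256 CPM in WT and 1424 in KO CCR2- macrophage-like cells (median ratio of measured genes −0.16). In CCR2+ macrophage-like cells it was 1748 and 1646 CPM (median ratio 0.03). The sum was also lower in KO monocyte-like (1206 and 1138 CPM) and neutrophil-like cells (1763 and 1500 CPM). The same held for T cell-like (1065 and 1011 CPM) and B cell-like cells (803 and 714 CPM). *Vegfa*, the angiogenic growth factor gene, was at 4.2 and 1.7 CPM in CCR2- macrophage-like cells (log2 ratio −1.31), at 22.8 and 10.4 CPM in monocyte-like cells (−1.13), at 65.7 and 33.6 CPM in neutrophil-like cells (−0.97) and at 18.2 and 7.3 CPM in T cell-like cells (−1.31). Its highest levels, 163 and 154 CPM, were those of CCR2+ macrophage-like cells, with a ratio of −0.08. *P4ha2*, a further collagen prolyl hydroxylase subunit, was at 10.1 and 4.9 CPM in CCR2- macrophage-like cells (−1.05). *Rbpj*, which encodes the nuclear effector of Notch signalling, was at 185 and 90.8 CPM in neutrophil-like cells (−1.03). The alternatives by sex, top cell and processing were computed for the members only. The ratios of *Vegfa*, *P4ha2* and *Rbpj*, some at levels of a few CPM, were not checked in that way.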

How the data were processed

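The authors sorted live CD45+ cells with 7-AAD and anti-CD45, prepared 10x 5′ libraries and deposited UMI counts per gene and barcode, made with Cell Ranger 8.0.1 on mm10 per the file headers. Barcodes with at least 500 genes, 250 UMIs and at most 30% mitochondrial UMIs were kept. Scrublet (scanpy 1.11.5) set no usable threshold, so the barcodes with the highest doublet scores were left out at 0.4% per 1000 barcodes, 98 in WT and 73 in KO. Libraries were integrated and clustered with Seurat 5.3.0 in R 4.3.3 (2000 variable genes, 30 dimensions, resolution 0.8) without the 36 genes, the wider lists and sex-linked genes. Clusters were named from marker genes. A rebuilt name can differ from the study's, and the study's assignment of cells to hearts was not used here. Counts were summed per class as CPM (Python 3.11.15, pandas 2.3.3, scipy 1.17.1), with exact Poisson intervals, and exact binomial intervals for ratios and shares, all at 95%. Ratios have no pseudocount. Genes with at least 100 UMIs over both libraries counted as measured. The ratio step was tested on simulated counts that held counting error only, so that test does not bear on the spread between cells or hearts. Named with values were members past 0.5 in size on the log2 scale, members 4-fold above the median class, isozyme pairs, and genes of the wider lists past 1. Single clusters and genes beyond these were chosen after their values were seen. The members and lists were chosen with earlier results of these data known. One gene of the wider lists that met this rule is not reported here.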

Additional observations from a re-analysis of the deposited data

Results flagged for a closer look

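For 3 genes the 2 libraries differed in opposite directions in different cell classes, each past 0.5 on the log2 scale (KO over WT). In no case was the difference between classes tested. The share of all genes with such opposite differences was not computed, so this count has no background beside it. *Pdk1* was at −0.52 in CCR2- macrophage-like cells and 0.52 in T cell-like cells. Both values lay close to the limit and did not reach it in 6 (CCR2- macrophage-like) and 7 (T cell-like) of 13 alternatives. With WT cluster shares in both libraries they were −0.50 (just short of the limit) and 0.13. *Slc16a1* was at 0.92 in CCR2+ macrophage-like cells and −0.70 in T cell-like cells. *Egln3* was at 1.57 in CCR2+ macrophage-like cells, −0.93 in monocyte-like cells and −0.89 in neutrophil-like cells.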

How the results depend on the processing

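*Slc2a1* and *Ankrd37* in CCR2- macrophage-like cells, *Eno3* and *Egln3* in CCR2+ macrophage-like cells, *Egln3* and *Ankrd37* in neutrophil-like cells and *Ndrg1* in T cell-like cells kept their direction and stayed past 0.5 in all 13 alternatives. Over all 27 genes and classes past the limit, 275 of the alternative values stayed past it, 66 did not reach it and 10 changed direction. These alternative values were counted without the limit of 100 UMIs, so some rest on few UMIs. In female neutrophil-like cells *Ankrd37* had 9 and 7 UMIs and *Egln3* 13 and 6 (WT and KO). In CCR2+ macrophage-like cells *Eno3* had 17 and 41 UMIs in male cells and 11 and 68 in female cells. The cell-type makeup, erythroid UMI and top-cell alternatives were chosen after seeing the data. No paired analysis was possible because each genotype had 1 library. In what follows, sums are log2 ratios (KO over WT) of the summed level and counts are numbers of members past 0.5, and the cause of each change was not tested. The share of all genes past 0.5 was not computed for the alternatives. With stricter limits (1000 genes or more, mitochondrial UMIs up to 10%) the sum was −0.18 in CCR2- and 0.041 in CCR2+ macrophage-like cells. With no doublets removed it was −0.19 in CCR2- macrophage-like and −0.37 in T cell-like cells, with all variable genes used for clustering −0.37 in T cell-like cells, and at resolution 0.4 −0.29. With a pseudocount of 10 CPM the counts were 3 in CCR2+ macrophage-like, 1 in monocyte-like and 0 in B cell-like cells. In male cells the sums were −0.14 (CCR2- macrophage-like), 0.40 (CCR2+ macrophage-like), 0.026 (monocyte-like), −0.039 (T cell-like) and −0.0080 (B cell-like), the monocyte-like count was 0, *Eno3* in monocyte-like cells was at −0.085 and *Mif* in T cell-like cells at 0.049. In female cells the sums were −0.42 (CCR2- macrophage-like), −0.24 (CCR2+ macrophage-like), −0.22 (monocyte-like), 0.13 (neutrophil-like), −0.44 (T cell-like) and 0.36 (B cell-like), and the counts 10 in CCR2- macrophage-like, 18 in T cell-like, 5 in monocyte-like, 8 in B cell-like and 1 in neutrophil-like cells. The female CCR2+ macrophage-like count was 6 (3 higher and 3 lower, against 7 and 0 in all cells). In female cells *Slc2a3* (−1.09), *Aldoc* (−0.19) and *Bnip3* (−0.24) in CCR2+ macrophage-like and *Mif* (1.46) in neutrophil-like cells changed direction. In cells called G1 the sums were −0.22 (CCR2- macrophage-like), 0.080 (CCR2+ macrophage-like), −0.067 (neutrophil-like), −0.11 (T cell-like) and 0.10 (B cell-like), the T cell-like count was 5, *Hk2* in B cell-like cells was at −0.071 and *Tpi1* in T cell-like cells at 0.0018. As a mean over cells of each cell's CPM the sums were −0.17 (CCR2- macrophage-like), 0.16 (CCR2+ macrophage-like), −0.18 (neutrophil-like), −0.026 (T cell-like) and 0.14 (B cell-like), the counts 3 in B cell-like and 5 in T cell-like cells, and *Mif* in T cell-like cells was at 0.017. Without *Gapdh* the sum was 0.15 in CCR2+ macrophage-like and −0.25 in T cell-like cells. In cells with no erythroid UMI it was −0.22 (CCR2- macrophage-like), 0.15 (CCR2+ macrophage-like), −0.17 (neutrophil-like) and 0.15 (B cell-like), and *Slc2a3* in CCR2+ macrophage-like cells was at −0.074. With WT cluster shares in both libraries it was −0.13 (CCR2- macrophage-like), −0.057 (neutrophil-like), −0.079 (T cell-like) and 0.019 (B cell-like), and the counts were 2 in neutrophil-like and 3 in T cell-like cells. Without the cell with most UMIs of a gene the count was 2 in B cell-like and 5 in CCR2+ macrophage-like cells, where *P4ha1* (0.44) and *Slc2a3* (0.48) did not reach the limit. The share of cells with a UMI (KO minus WT, percentage points) changed direction from thinned cells to all UMIs for *Slc2a3* in CCR2+ macrophage-like cells (5.15), *Egln3* in monocyte-like cells (0.094) and *Tpi1* (2.09), *Pgam1* (3.38) and *Mif* (18.7) in T cell-like cells. Counts under 100 UMIs limit *Eno2*, *Aldoc*, *Adm* and *Pfkm* in most classes.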
